A study of Mus musculus with 9 samples.

Results

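Gene expression was examined for 9 genes that encode secreted angiogenic ligands, a ligand co-receptor and the oxygen-regulated subunits of hypoxia-inducible factor, in white gastrocnemius, the pale fast-twitch region of a hindlimb muscle, taken from Gaa knock-out and wild-type mice. The members were chosen by name: Vegfa, Vegfb, Vegfc, Pgf, Angpt1, Angpt2, Nrp1, Hif1a and Epas1. All 9 were found among the 18062 genes of the deposited table, on 15 transcript lines. Gaa encodes the acid alpha-glucosidase that degrades glycogen in lysosomes, its loss causes Pompe disease, and the comparison asks how the knock-out muscle differs from wild-type muscle. The 5 knock-out libraries (ko1 to ko5) came from mice 5 months old in which exon 6 of Gaa was disrupted, from a line with loxP sites in introns 5 and 6. The 4 wild-type libraries (wt1 to wt4) came from mice of 5 months (2 libraries) and 6 months (2 libraries), but the column names carry no age, so both ages form a single arm. All mice were labelled as of mixed background (BL6/129j), with no treatment named. The labels do not name the animals, so p-values measure the spread between libraries.

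The vascular endothelial growth factors (VEGF) are secreted dimers that bind receptor tyrosine kinases on endothelial cells. VEGF-A binds Flt1 and Kdr, VEGF-B and placental growth factor (Pgf) bind Flt1, and VEGF-C and VEGF-D bind Flt4, the receptor of lymphatic vessels. Angiopoietin 1 (Angpt1) activates the receptor Tek and stabilises vessels, while angiopoietin 2 (Angpt2), released by endothelium, can oppose it. Hif1a and Epas1 are transcription factor subunits that are hydroxylated by prolyl hydroxylases and destroyed through Vhl when oxygen is present, so their activity is set largely by protein stability and not by transcript level. Skeletal muscle fibres are a main source of VEGF-A in muscle.

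Levels are given in RPKM (reads scaled to transcript length and to the reads of the library), added up over the transcripts of a gene. Differences were taken on log2(RPKM + 0.1), so that they are understated where a gene is low. Gaa itself had a mean of 3.44 RPKM in knock-out libraries against 49.4 in wild-type ones (log2 difference -3.80, limma adjusted p = 1.8e-11). By estimate, 1 RPKM over 1 kilobase equalled 17.5 to 37.2 reads per knock-out library and 36.9 to 64.4 per wild-type library, so the knock-out values are the less precise. Of 11032 genes tested, 51.8% differed between the genotypes, 37.0% higher and 14.8% lower in the knock-out, and the median gene was 0.12 higher. The lowest value of the 10 fast-fibre markers in any library was 382 RPKM. No other muscle region was among the libraries, so the label of the white region was not tested by these values.

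In the knock-out muscle Angpt1 transcripts were about doubled, while those of Pgf, Vegfa and the co-receptor Nrp1 fell. On the deposited scale Vegfb, Angpt2, Hif1a and Epas1 did not pass the test, and Vegfc was too low to be tested. Of the 8 members that passed the expression filter (a mean of at least 0.5 RPKM over the 9 libraries), 1 rose, 3 fell and 4 were not called (limma, Benjamini-Hochberg adjusted p below 0.05 over all tested genes). The 4 calls among 8 members lie near the 51.8% called over all genes, and the 2 members with no overlap downwards and 1 upwards compare with 42.4% of genes without overlap in either direction. With quantile normalization 1 member rose and 6 fell (51.7% of all genes called, 24.0% higher and 27.7% lower), with median centring 1 rose and 5 fell (50.1% called, 25.1% higher and 25.0% lower), and with the trend on length removed 1 rose and 4 fell (49.2% called, 25.1% higher and 24.0% lower). Among those lower were Epas1 with each of these scalings, Hif1a with median centring and quantile normalization, and Angpt2 with quantile normalization. Pgf and Angpt2 passed the filter through their wild-type values, since their knock-out means were below 0.5 RPKM.

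**Figure D1:**
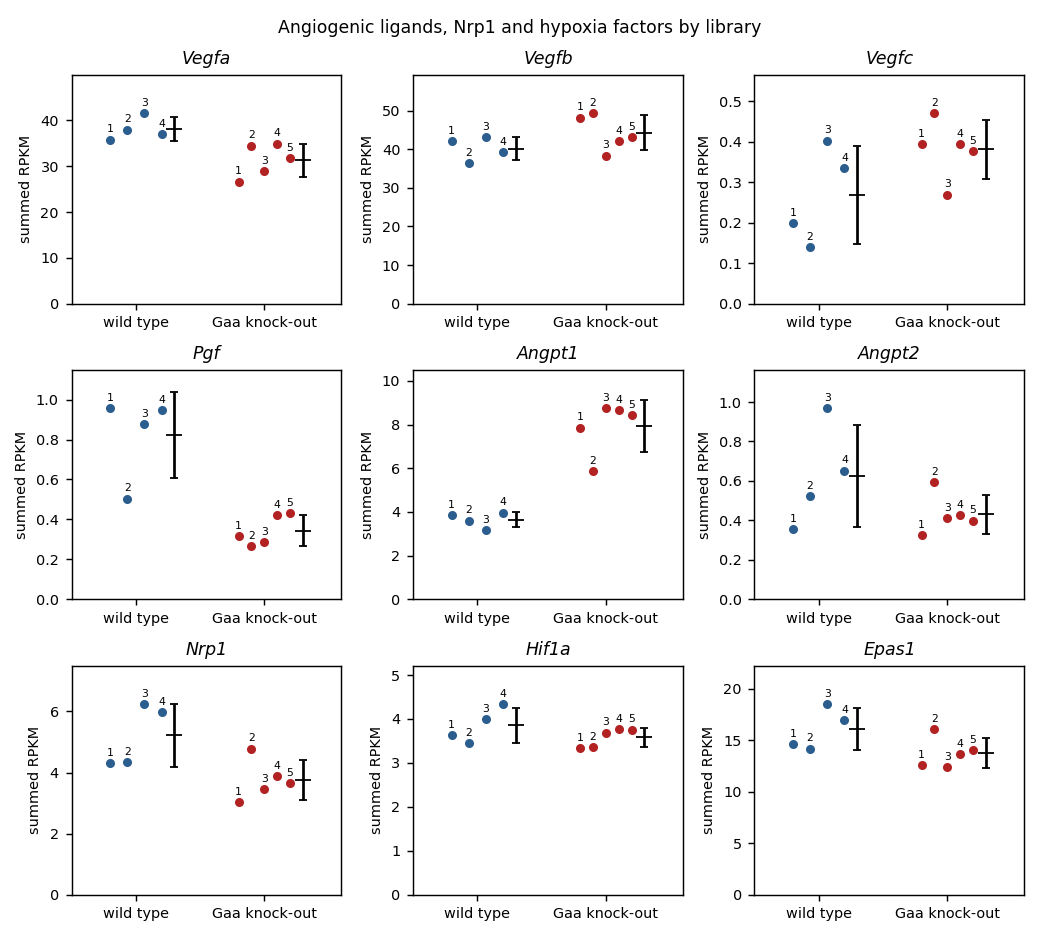
Summed RPKM of the 9 members in each library (numbered points), with the mean and SD of each genotype as a black bar; every axis starts at 0. Angpt1 lies higher in all 5 knock-out libraries (5.88 to 8.75 RPKM) than in any wild-type library (3.16 to 3.97), and Vegfa and Pgf lie lower in all 5.

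Vegfa, the principal angiogenic ligand and among the 2 most abundant members, was at 26.6, 34.5, 28.9, 34.9 and 31.8 RPKM in ko1 to ko5 and at 35.8, 38.0, 41.7 and 37.0 RPKM in wt1 to wt4. All knock-out values lay below all wild-type values, which held for 11.4% of the tested genes, but ko4 and wt1 were close. The means were 31.3 ± 3.58 (SD, n = 5) and 38.1 ± 2.53 (SD, n = 4) RPKM, so Vegfa was 17.8% lower in the knock-out (log2 difference -0.29, SE 0.08, limma adjusted p = 0.013). The size of this fall was below that of the other called members. Without wt3 and wt4 it was -0.24 with an adjusted p of 0.077 by limma.

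The 6 deposited Vegfa transcripts differ in splicing and in where translation starts, and the way the authors divided reads among them is not known here. The transcript NM_009505 took 40.9% ± 1.43 (SD, n = 5) of the summed knock-out RPKM and 41.4% ± 1.65 (SD, n = 4) of that of the wild type. NM_001025250, whose annotated coding sequence is 392 codons against 368 for NM_009505, took 13.3% ± 2.49 against 17.5% ± 0.913. NM_001110267 took 32.0% ± 2.71 against 27.6% ± 0.772. In an exact two-sided permutation test chosen after the transcript values were seen, these last differences reached p = 0.016 and p = 0.024, and p = 0.074 for both when adjusted over the 7 shares compared. No change in the transcript make-up of Vegfa passed the threshold.

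Vegfb, a ligand of Flt1 linked to fatty acid handling and heart muscle, was at 48.2, 49.4, 38.4, 42.2 and 43.1 RPKM in ko1 to ko5 and at 42.1, 36.4, 43.1 and 39.2 RPKM in wt1 to wt4. The genotypes overlapped, with ko3 below 3 of the wild-type libraries. The difference was 0.14 (SE 0.08, limma adjusted p = 0.18). Its sign rested on the scaling: it was 0.01 with each library centred on its median and -0.02 with quantile normalization. Of its 2 transcripts, NM_001185164 (188 codons) held 57.9% ± 5.94 of the knock-out sum, against 60.1% ± 1.91 for the wild type (exact permutation p = 0.49).

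Pgf showed the deepest fall of the members. It was at 0.314, 0.265, 0.287, 0.422 and 0.432 RPKM in ko1 to ko5 and at 0.957, 0.504, 0.877 and 0.949 RPKM in wt1 to wt4. All knock-out values lay below all wild-type values, with wt2 nearest to the knock-out. The mean of 0.344 ± 0.0778 RPKM (SD, n = 5) was 41.9% of the wild-type mean of 0.822 ± 0.215 (SD, n = 4), with a log2 difference of -1.04 (SE 0.20, limma adjusted p = 0.0012). These levels rest on few reads, an estimated 8 to 25 per knock-out library and 30 to 89 per wild-type library. The size of the difference depends on the pseudocount, being -0.43 with 1 and -1.21 with 0.01. The call held without a filter (limma adjusted p = 0.0039) and in every fit with a library or a pair of wild-type libraries left out.

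Vegfc, the lymphatic ligand, was below the filter, at 0.393, 0.472, 0.270, 0.395 and 0.377 RPKM in ko1 to ko5 and 0.20, 0.140, 0.403 and 0.334 RPKM in wt1 to wt4. The genotypes overlapped, and wt3 and wt4 lay within the range of the knock-out. An estimated 12 to 64 reads stood behind each value. Without a filter the difference was 0.43 (SE 0.23, limma adjusted p = 0.19).

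The VEGF-D gene is Figf in the deposited table and Vegfd in the reference. Promoter windows are shown for Vegfa (called lower), Vegfb (not called) and Vegfd (called higher), chosen after the expression values were seen. Each is the 250 bases before the gene's start in RefSeq on GRCm38.p6, a later build than that of the deposited data. Capitals mark matches to ACGTG or GCGTG, the core letters bound by hypoxia-inducible factor, on either strand, with no overlap between matches.
Vegfa, chr17:46032378-46032627, minus strand: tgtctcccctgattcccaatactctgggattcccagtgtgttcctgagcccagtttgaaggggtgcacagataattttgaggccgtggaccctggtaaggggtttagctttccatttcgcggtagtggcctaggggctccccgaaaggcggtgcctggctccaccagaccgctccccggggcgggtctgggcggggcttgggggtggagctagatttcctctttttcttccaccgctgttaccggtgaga
Vegfb, chr19:6987652-6987901, minus strand: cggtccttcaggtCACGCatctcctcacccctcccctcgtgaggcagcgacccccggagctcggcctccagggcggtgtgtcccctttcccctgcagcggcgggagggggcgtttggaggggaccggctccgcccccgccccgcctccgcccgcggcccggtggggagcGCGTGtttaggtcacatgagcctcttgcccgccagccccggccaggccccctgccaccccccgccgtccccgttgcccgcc
Vegfd, chrX:164373272-164373521, plus strand: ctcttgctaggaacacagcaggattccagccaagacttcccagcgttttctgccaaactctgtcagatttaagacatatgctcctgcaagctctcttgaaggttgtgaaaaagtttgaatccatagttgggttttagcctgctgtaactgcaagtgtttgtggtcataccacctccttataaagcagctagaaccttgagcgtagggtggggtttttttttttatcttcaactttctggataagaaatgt
Vegfb had 2 matches to GCGTG, 237 and 81 bases before the start, and Vegfa and Vegfd had none in these windows. Of 32851 promoter windows of this length, 38.6% held at least 1 match. Bases outside these windows were not searched, so sites further from the start would be missed. A link between matches and expression was not tested. Of the other members in the RefSeq table, Hif1a had 3 matches, of which 2 overlap on opposite strands, Pgf and Nrp1 had 1 each (for these 3 the table's start lies inside the gene model), and Vegfc had none.

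Angpt1, which strengthens vessel walls through Tek, was the only member that rose. It was at 7.86, 5.88, 8.75, 8.67 and 8.42 RPKM in ko1 to ko5 and at 3.84, 3.61, 3.16 and 3.97 RPKM in wt1 to wt4. Every knock-out value was above every wild-type value, as for 30.9% of the tested genes, and ko2 was the lowest of the knock-out libraries. The mean rose from 3.65 ± 0.355 (SD, n = 4) to 7.92 ± 1.19 RPKM (SD, n = 5), a 2.13-fold difference on the fitted scale (log2 difference 1.09, SE 0.12, limma adjusted p = 1.5e-05). The difference relative to the median gene was 0.96, and the estimated 573 to 1374 reads per library make it one of the better measured members.

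Angpt2 was at 0.324, 0.594, 0.410, 0.428 and 0.398 RPKM in ko1 to ko5 and at 0.358, 0.522, 0.968 and 0.652 RPKM in wt1 to wt4. The genotypes overlapped: wt1 lay among the knock-out libraries and ko2 above wt1 and wt2. The difference of -0.40 (SE 0.23, limma adjusted p = 0.17) did not pass the test. It reached an adjusted p of 0.014 with quantile normalization and 0.041 without wt1, and was -0.03 without wt3 and wt4.

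**Figure D2:**
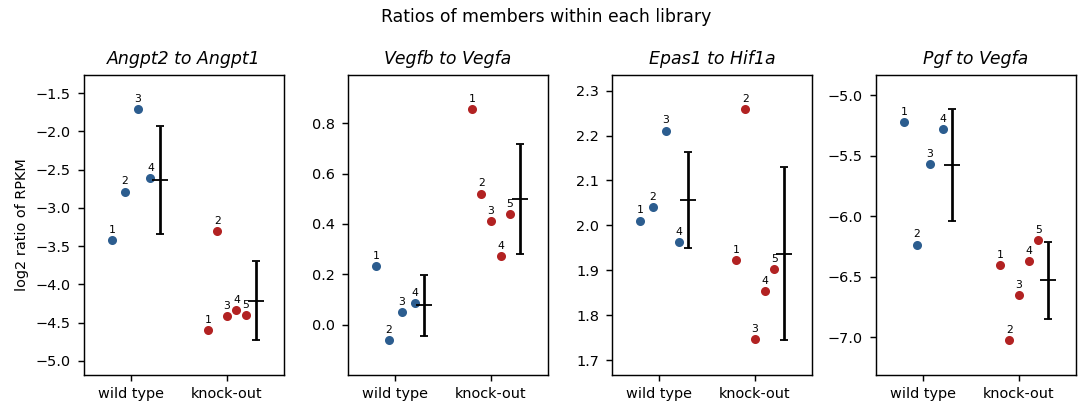
Log2 ratio of RPKM of 2 members within each library (numbered points), with mean and SD per genotype as a black bar; the vertical axes do not start at 0. The Angpt2 to Angpt1 ratio of ko2 (-3.31) stands apart from the other knock-out libraries (-4.60 to -4.34) and overlaps the wild type.

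Ratios between members within a library are not changed by a single scaling factor for that library. Quantile normalization and removal of the length trend can change them, and the ratios were not rerun under these. By exact two-sided permutation over the libraries, 4 ratios were compared, with adjustment over the 4. Angpt2 and Angpt1 compete for the same receptor. Their log2 ratio was -4.21 ± 0.516 (SD, n = 5) for knock-out libraries against -2.63 ± 0.709 (SD, n = 4) for wild-type ones, a difference of -1.58 (exact p = 0.024, adjusted p = 0.032). In linear terms, Angpt1 exceeded Angpt2 18.5-fold in knock-out and 6.20-fold in wild-type muscle by the geometric means. The groups overlapped only through ko2, which lay above wt1.

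Vegfb was more abundant relative to Vegfa in the knock-out. The ratio of Vegfb to Vegfa was 1.21 to 1.81 in the knock-out libraries and 0.958 to 1.18 in the wild-type libraries, with a log2 difference of 0.42 (exact p = 0.016, adjusted p = 0.032). The groups did not overlap, though ko4 was close to wt1. With the length trend removed, the limma differences were -0.11 for Vegfb and -0.39 for Vegfa, against 0.14 and -0.29 as deposited. Pgf fell more than Vegfa: the log2 ratio of Pgf to Vegfa was lower by -0.95 in the knock-out (exact p = 0.016, adjusted p = 0.032), with wt2 inside the knock-out range. With a library left out, the permutation p adjusted over the 4 ratios ranged from 0.036 to 0.076 for these 3.

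Nrp1, neuropilin 1, binds VEGF-A and class 3 semaphorins on endothelium and other cells. It was at 3.03, 4.78, 3.45, 3.88 and 3.66 RPKM in ko1 to ko5 and at 4.32, 4.33, 6.25 and 5.98 RPKM in wt1 to wt4. The knock-out library ko2 lay above wt1 and wt2, and the other 4 lay below all wild-type libraries. The mean was 3.76 ± 0.651 (SD, n = 5) against 5.22 ± 1.04 RPKM (SD, n = 4), 27.9% lower in the knock-out (log2 difference -0.46, SE 0.14, limma adjusted p = 0.020). The call was lost without wt3 (limma adjusted p = 0.059), without wt4 (0.059), without both (0.24, with a difference of -0.21) and without a filter (0.052).

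**Figure D3:**
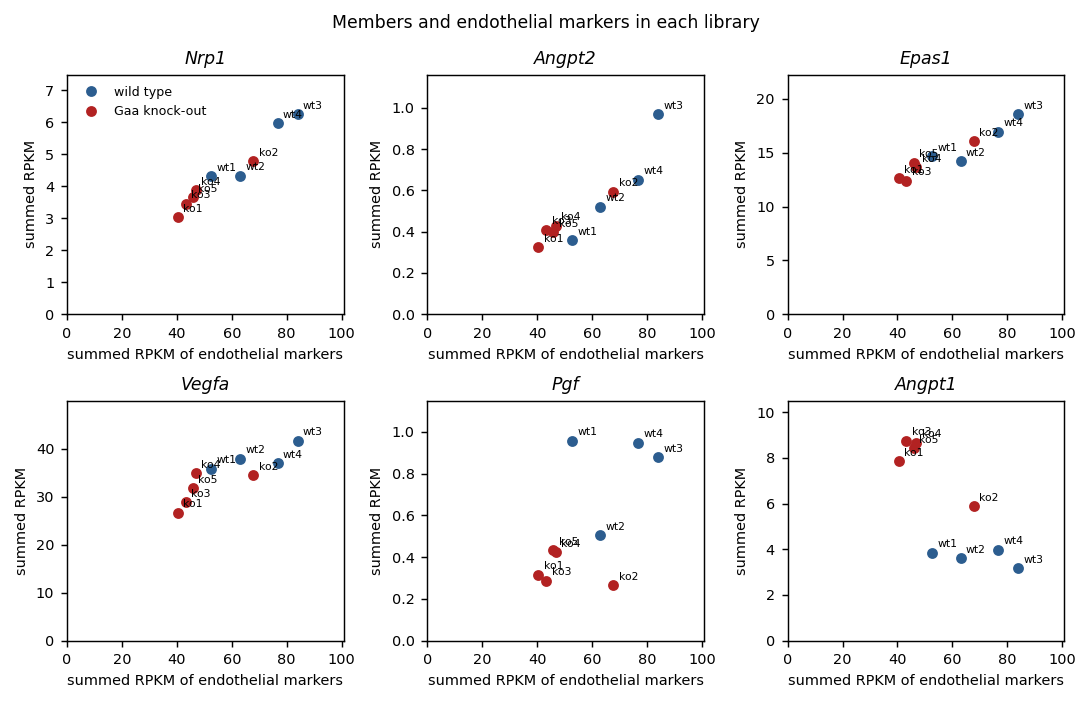
Summed RPKM of 6 members (vertical axes) against the summed RPKM of 17 endothelial markers (horizontal axes) in each library; all axes start at 0. For Nrp1 both genotypes lie along a common course, whereas for Angpt1 the 5 knock-out libraries lie above all wild-type libraries, which are at 3.16 to 3.97 RPKM.

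Markers of endothelium, the cell type that carries Nrp1 and the receptors of these ligands, moved with these results. Of 22 endothelial markers tested, 12 fell, 1 rose and 9 were not called, with a median difference of -0.50 against 0.12 for all genes, and none was listed at 0 in any library. Among all tested genes 14.8% fell and 37.0% rose. Leaving out wt3 and wt4 left 7 lower, and leaving out wt1 and wt2 left 16 lower. With median centring 16 fell, with quantile normalization 17, and with the length trend removed 17. Of all genes 25.0%, 27.7% and 24.0% fell under these scalings, and no endothelial marker rose. In bulk muscle, fewer endothelial cells and less RNA per cell cannot be told apart. For a sum, Kdr, Flt1, Tek, Tie1 and Egfl7 were set aside, since they are also on the receptor or ligand lists used here. The summed RPKM of the 17 markers left was 40.4, 67.8, 43.2, 46.9 and 45.9 in ko1 to ko5 and 52.6, 63.0, 83.9 and 76.7 in wt1 to wt4. Thus ko2 had the highest sum of the knock-out libraries and lay above wt1 and wt2, as it did for Nrp1 and Angpt2.

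Relative to this endothelial sum, the log2 ratio of Nrp1 was -3.69 ± 0.0919 (SD, n = 5) for knock-out libraries against -3.72 ± 0.108 (SD, n = 4) for wild-type ones, a difference of 0.03 (exact permutation p = 0.60, adjusted over the 9 members p = 0.68). For Angpt2 the difference of this ratio was 0.03 (exact p = 0.83, adjusted p = 0.83), and for Vegfa 0.21 (exact p = 0.17, adjusted p = 0.21). Angpt1 differed by 1.61 (exact p = 0.016), with an adjusted p of 0.071. Vegfc differed by 1.10 (exact p = 0.0079) and Vegfb by 0.64 (exact p = 0.024), with the same adjusted p of 0.071. The Vegfc values rest on few reads. Epas1 differed by 0.28 (exact p = 0.048) and Hif1a by 0.40 (exact p = 0.071), with an adjusted p of 0.11 for both. For Pgf the difference was -0.74 (exact p = 0.063, adjusted p = 0.11), and ko2, with the highest marker sum of the knock-out libraries, had the lowest Pgf. This ratio was chosen after the data were seen, and no member passed the adjusted threshold by it.

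Hif1a, the subunit of hypoxia-inducible factor found in most cells, was at 3.33, 3.36, 3.69, 3.77 and 3.76 RPKM in ko1 to ko5 and at 3.64, 3.45, 4.0 and 4.35 RPKM in wt1 to wt4. The genotypes overlapped, with wt1 and wt2 inside the knock-out range. The difference was -0.10 (SE 0.08, limma adjusted p = 0.32), and it passed the threshold relative to the other genes: -0.23 with median centring (adjusted p = 0.025) and -0.24 with quantile normalization (adjusted p = 0.016).

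Epas1 (HIF-2 alpha), the subunit most abundant in endothelium, was higher than Hif1a in every library, and since RPKM is scaled to length the levels can be compared. It was at 12.6, 16.1, 12.4, 13.6 and 14.1 RPKM in ko1 to ko5 and at 14.7, 14.2, 18.5 and 16.9 RPKM in wt1 to wt4. The knock-out library ko2 lay above wt1 and wt2, the same position it had for Nrp1. The difference was -0.22 (SE 0.10, limma adjusted p = 0.071). It passed the threshold with median centring (-0.35, adjusted p = 0.0042), with quantile normalization (-0.38, adjusted p = 0.0042), and with the trend on transcript length removed (-0.25, adjusted p = 0.023). The ratio of Epas1 to Hif1a was 3.83 in knock-out and 4.16 in wild-type muscle by the geometric means (log2 difference -0.12, exact permutation p = 0.31, adjusted p = 0.31).

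**Figure D4:**
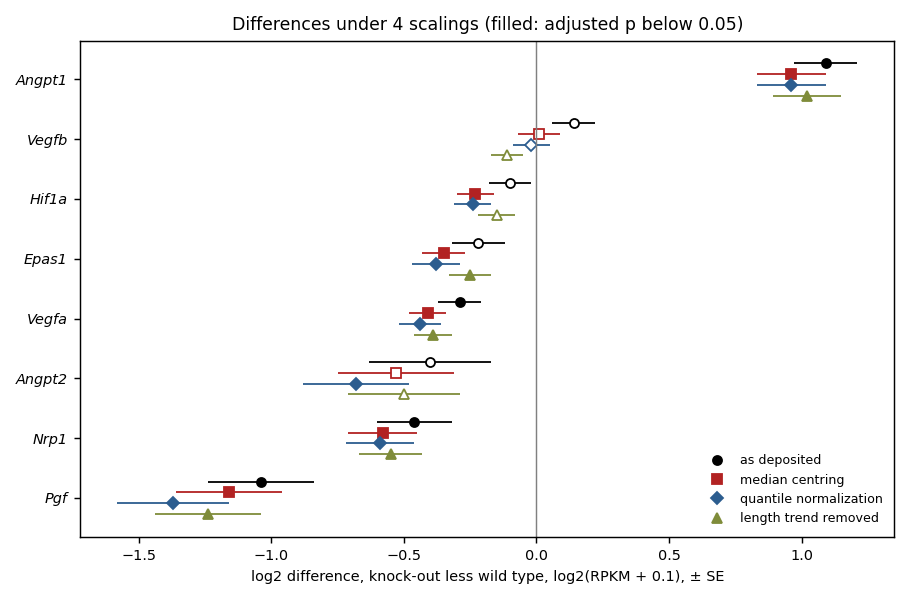
Log2 difference (knock-out less wild type, horizontal axis) with its SE for the 8 tested members, as deposited and under 3 other scalings; filled symbols passed an adjusted p of 0.05. Angpt1, Vegfa, Nrp1 and Pgf are filled under all 4, Epas1 under 3 and Hif1a under 2, and Vegfb lies near 0 with a sign that changes.

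Of 6 receptor genes of these ligands, 4 fell, none rose and 2 (Tek and Tie1) were not called, with a median difference of -0.68. Among all tested genes 14.8% fell and 37.0% rose. Flt1, the receptor shared by VEGF-A, VEGF-B and Pgf, fell from 4.18 ± 0.628 to 2.18 ± 0.515 RPKM (log2 difference -0.93, SE 0.16, limma adjusted p = 5.3e-04), and Flt4 fell from 0.892 ± 0.135 to 0.448 ± 0.138 RPKM (adjusted p = 0.0030), a gene that passed the filter through its wild-type values and whose log2 difference of -0.89 ran from -1.10 to -0.39 over the settings run. Kdr, the main signalling receptor of VEGF-A, fell from 3.09 ± 1.3 to 1.62 ± 0.695 RPKM (adjusted p = 0.025), though ko2 at 2.86 RPKM lay above wt1 at 1.92 and wt2 at 2.03. Tek, the angiopoietin receptor, named for its role after its values were seen, was at 2.20 ± 0.386 and 2.46 ± 0.525 RPKM (adjusted p = 0.46). The count of lower receptors was 2 with no filter, without ko1, ko3, ko4, wt3 or wt4, and without wt3 and wt4 together, and 5 under each of the 3 other scalings. The endothelial markers moved with these values, but Flt1, Kdr, Tek and Tie1 are on both lists. The part of the endothelial markers in the receptor values was not tested.

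**Figure D5:**
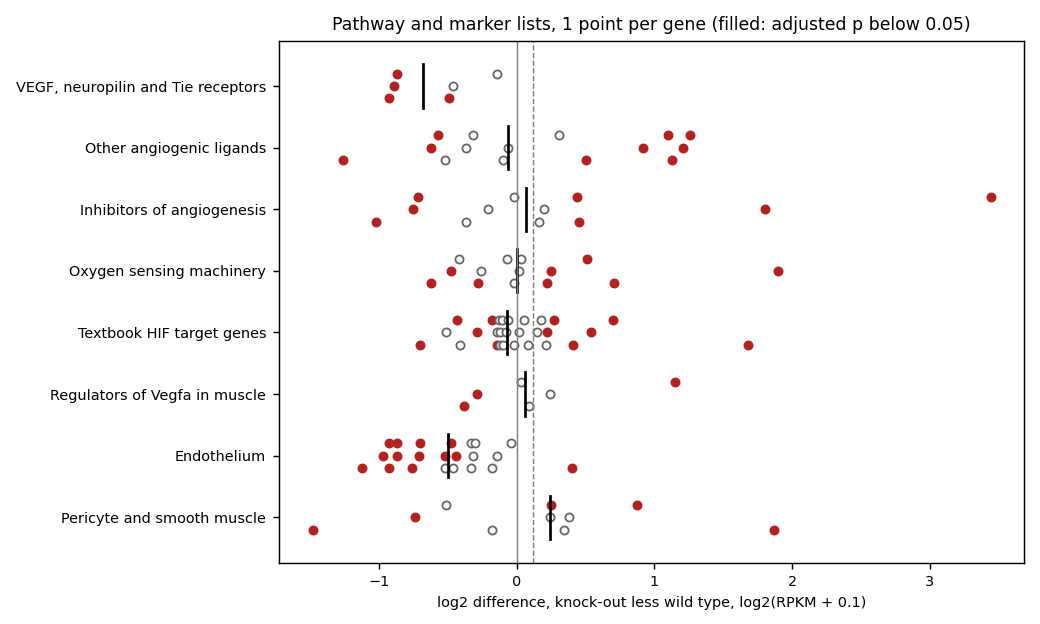
Log2 difference (knock-out less wild type, horizontal axis) of each tested gene of 8 lists, with filled points for an adjusted p below 0.05, black bars for list medians, a solid line at 0 and a dashed line at the median of all tested genes (0.12). Receptors and endothelial markers lie mostly below 0, while the oxygen sensing genes and targets of hypoxia-inducible factor spread to both sides.

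Other angiogenic ligands moved in both directions: of 15 tested, 6 rose, 3 fell and 6 were not called, with a median of -0.06, where 37.0% of all genes rose and 14.8% fell. The number that fell was 6 with median centring or quantile normalization, 7 without wt1 and wt2, and 1 without wt3 and wt4. VEGF-D (Figf), a ligand of Flt4, was at 3.83, 3.68, 3.18, 3.24 and 4.43 RPKM in ko1 to ko5 and at 1.41, 1.62, 1.44 and 1.39 RPKM in wt1 to wt4. All knock-out values were above all wild-type values, with a log2 difference of 1.26 (SE 0.10, limma adjusted p = 1.7e-06). Pdgfb, which recruits pericytes to vessels, rose from 4.33 ± 0.461 to 9.72 ± 1.97 RPKM, and Tgfb1, a regulator of matrix and vessel wall cells, from 1.3 ± 0.0861 to 2.91 ± 0.343. Dll4, the Notch ligand of endothelial tip cells, fell from 1.43 ± 0.596 to 0.530 ± 0.219 RPKM (adjusted p = 0.0024). Jag1, another Notch ligand, fell to 0.816 from 1.26 RPKM and Igf1 to 1.66 from 2.47.

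Among 12 tested inhibitors of angiogenesis, 4 rose and 3 fell, with a median of 0.07, where 37.0% of all genes rose and 14.8% fell. Cxcl10, a chemokine induced by interferon, rose from 0.113 ± 0.0839 to 2.15 ± 0.605 RPKM (log2 difference 3.44, SE 0.27, limma adjusted p = 1.4e-06). Sema3a, a semaphorin that signals through Nrp1, rose from 0.263 ± 0.065 to 1.19 ± 0.332 RPKM (log2 difference 1.80). Cxcl10 and Sema3a passed the filter through their knock-out values, and over the settings run, pseudocounts included, their differences ranged from 1.48 to 4.38 and from 0.78 to 2.11. Among the others, Timp2, an inhibitor of metalloproteinases, rose 1.36-fold. Adamts1, a protease that can sequester VEGF-A, fell from 5.95 ± 0.844 to 3.51 ± 0.586 RPKM. Spry4, a feedback inhibitor of receptor tyrosine kinase signalling, and Sema3f, a ligand of Nrp2, also fell, with log2 differences of -1.02 and -0.72, and Spry4 passed the filter through its wild-type values.

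In the oxygen sensing machinery, 5 of 14 tested genes rose and 3 fell, with 3 and 6 by median centring. Over all genes 37.0% rose and 14.8% fell, or 25.1% and 25.0% by median centring. Egln3, a prolyl hydroxylase that acts on the alpha subunits and is itself induced by hypoxia-inducible factor, was at 22.6, 24.1, 20.8, 18.1 and 20.2 RPKM in ko1 to ko5 and at 6.43, 5.39, 5.85 and 4.79 RPKM in wt1 to wt4. The knock-out values lay 3.73-fold above the wild-type values on the fitted scale and did not overlap them (log2 difference 1.90, SE 0.10, limma adjusted p = 4.0e-08). Egln1, the main oxygen sensor of most tissues, named like Arnt for its role after its values were seen, was at 50.1 ± 3.10 and 49.5 ± 1.66 RPKM (adjusted p = 0.82).

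Hif1an, the asparaginyl hydroxylase that blocks transactivation by the alpha subunits, fell from 46.0 ± 1.94 to 29.9 ± 1.76 RPKM, with no overlap (log2 difference -0.62, SE 0.06, limma adjusted p = 4.2e-06). The coactivator gene Ep300 fell from 5.89 to 4.19 RPKM and Cul2, the scaffold of the Vhl ubiquitin ligase, from 13.2 to 10.9 RPKM. Siah2, a ligase that targets prolyl hydroxylases, rose from 2.37 to 3.93 RPKM. Tceb1 (elongin C), another part of the Vhl ligase, rose from 24.6 to 29.3 RPKM, a call that ended with median centring (adjusted p = 0.12). Arnt, the constitutive partner of both alpha subunits, was at 9.27 ± 0.476 and 9.71 ± 0.302 RPKM (adjusted p = 0.33).

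Textbook targets of hypoxia-inducible factor showed no common direction. Of 28 tested, 6 rose, 5 fell and 17 were not called, with a median of -0.07, and with median centring 3 rose and 11 fell. Over all genes 37.0% rose and 14.8% fell, or 25.1% and 25.0% with median centring. The glucose transporter Slc2a1 was at 6.21, 5.93, 5.56, 5.80 and 4.86 RPKM in ko1 to ko5 and 1.40, 1.5, 2.40 and 1.63 RPKM in wt1 to wt4, so the groups did not overlap (log2 difference 1.68, SE 0.14, limma adjusted p = 1.8e-06). The glycolytic genes Gapdh and Eno1 rose 1.62-fold and 1.46-fold. P4ha2, a collagen prolyl hydroxylase, fell from 8.52 ± 0.415 to 5.21 ± 0.494 RPKM (adjusted p = 1.7e-05), Vldlr, a lipoprotein receptor, from 48.4 to 36.0 RPKM and Higd1a, a mitochondrial protein, from 5.62 to 4.59 RPKM.

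Of 6 regulators of Vegfa in muscle, 1 rose and 2 fell, where 37.0% of all genes rose and 14.8% fell. Stat3, the transcription factor downstream of interleukin 6, rose from 8.24 ± 0.465 to 18.4 ± 0.530 RPKM (log2 difference 1.15, SE 0.05, limma adjusted p = 1.9e-08). Ppargc1a, a coactivator that drives Vegfa in exercised muscle, fell from 6.06 ± 0.262 to 4.68 ± 0.649 RPKM (adjusted p = 0.0055). Prkaa2, the catalytic subunit of AMP-activated kinase that prevails in muscle, fell from 41.2 to 33.8 RPKM (adjusted p = 0.0043).

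Levels of other cell types are given for all of their listed markers, and their part in the members' differences was not tested. Counts of markers called stand beside 37.0% of all genes higher and 14.8% lower, or 25.1% and 25.0% with median centring. Macrophage markers, which are of cells that can secrete VEGF ligands, summed to 79.8 to 135 RPKM per knock-out library against 33.0 to 44.0 per wild-type library, with 11 of 13 tested higher and none lower. The list holds 17 markers, and those not tested were below the filter. Some of the 11, such as Mpeg1 and Trem2 (wild-type means of 0.382 and 0.194 RPKM), passed the filter through their knock-out values. Pericyte and smooth muscle markers, of cells that can make Angpt1, summed to 81.9 to 137 RPKM per knock-out library against 90.8 to 122 per wild-type library. Of these 10 genes, 3 rose and 2 fell, among them Cspg4 from 0.622 to 2.49 RPKM and Rgs5 from 36.1 to 12.8 RPKM. Cnn1, also counted as higher, passed the filter through its knock-out values. Fibroblast markers summed to 273 to 364 RPKM in knock-out and 171 to 254 in wild-type libraries, with 3 of 6 higher. Slow-fibre markers summed to 187 to 446 RPKM per knock-out library against 55.0 to 193 per wild-type library, and 7 of 7 rose (median 2.01), or 6 with median centring. Adipocyte markers summed to 149 to 220 RPKM against 171 to 243. Of these 6 genes, 3 fell and none rose (median -0.56), 5 fell with median centring, and the leptin gene Lep fell from 4.31 ± 1.75 to 1.16 ± 0.293 RPKM (log2 difference -1.76, limma adjusted p = 7.4e-05). Of 10 fast-fibre markers 2 rose and none fell, while with median centring none rose and 1 fell. No marker in these lists was at 0 in all libraries.

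The genes most like each called member over the 9 libraries were found by Pearson's r of the log2 values among all tested genes, as a description of libraries that share genotype and depth. For Nrp1 they were Cd300lg (r = 0.988), Cdh5 (0.984), the cadherin of endothelial junctions, and Sdpr (0.983), a caveolar protein. These held at r of 0.97 to 0.98 for the deviations from the genotype means. For Vegfa they were Heg1 (0.969), an endothelial and cardiac membrane protein, Peli2 (0.959) and Spna2 (0.956). For Angpt1 they were Eif2s3x (0.991), Armcx3 (0.990) and Ptpn2 (0.989), and for Pgf they were Acad11 (0.985), Zfp52 (0.966) and Acyp1 (0.962). Among these, Cdh5 is also on the list of endothelial markers.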

How the data were processed

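The authors deposited 1 table of RPKM values for 9 libraries of total RNA (Trizol extraction and TruSeq kit, per the labels' protocols), with 1 line per RefSeq transcript (23665 lines) and no pooling of replicates. The submitters' processing notes list Partek 6.6, TopHat 1.3.2 and Bowtie 0.12.7.0 beside build mm9. They give no order or role for these, and nothing on strand or filtering was found. RPKM was summed per symbol, after 36 of 37 symbols that had become dates were restored through accessions. Genes with a mean of at least 0.5 RPKM were tested on log2(RPKM + 0.1), 5 knock-out against 4 wild-type libraries, with limma 3.58.1 in R 4.3.3 (trend, two-sided, Benjamini-Hochberg, threshold 0.05); the step was tested on simulated data. No count model was used, since RPKM values are not counts. Reads per RPKM were estimated from the step of a single read in low values, of which 71.0% to 74.6% lay within 0.1 of a whole number (20% by chance), and cover counting only. Transcript lengths came from GENCODE (GRCm38) by accession. Tables used Python 3.11.15, pandas 2.3.3 and scipy 1.17.1. All 9 members are named, and from each of 13 lists at most 3 higher and 3 lower called genes with the smallest p, plus Tek, Egln1 and Arnt, chosen after their values were seen. Members and lists were chosen with earlier results of these data known. Alternatives covered the pseudocount, filter, scaling, transcript summary, moderation and left-out libraries.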

Additional observations from a re-analysis of the deposited data

Results flagged for a closer look

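The log2 ratio of Angpt2 to Angpt1 was -3.31 in ko2, against -4.60 to -4.34 in the other 4 knock-out libraries, so this library stood far from the rest (the gap was 0.797 of the group's range, above Dixon's critical value of 0.71). It combined the lowest Angpt1 (5.88 RPKM) and the highest Angpt2 (0.594 RPKM) of the knock-out libraries. It was the only 1 of 26 groups of values examined, where chance gives about 1 in 20.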

How the results depend on the processing

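Angpt1 and Pgf kept their call under every alternative run that tested them; Pgf was not tested with a filter of 1 RPKM, and its difference was -0.43 with a pseudocount of 1 and -1.21 with 0.01. Without wt3 and wt4, 1 member was called lower. Vegfa lost it without wt3 and wt4 (-0.24), and Nrp1 lost it with no filter (-0.46), without wt3 and wt4 (-0.21) and without wt3 or wt4 alone. Relative to the other genes more members were called lower: Hif1a with median centring (-0.23) and quantile normalization (-0.24), Epas1 with these (-0.35 and -0.38) and with the length trend removed (-0.25), and Angpt2 with quantile normalization (-0.68). Without wt1 and wt2, Angpt2 (-0.77) and Epas1 (-0.37) passed. The sign turned for Vegfb with quantile normalization (-0.02) and the length trend removed (-0.11), and for Hif1a without wt3 and wt4 (0.01). The cause was not tested. With 1 library left out, the difference ranged from -0.60 to -0.19 for Angpt2, -0.28 to -0.15 for Epas1 and -0.55 to -0.37 for Nrp1. The log2 ratios then ranged from -1.85 to -1.27 (Angpt2 to Angpt1), 0.33 to 0.48 (Vegfb to Vegfa), -0.20 to -0.07 (Epas1 to Hif1a, permutation p adjusted over the 4 ratios = 0.038 without ko2) and -1.17 to -0.83 (Pgf to Vegfa). Without wt1 and wt2 the Angpt2, Vegfb and Pgf ratios were -2.06, 0.43 and -1.10, and without wt3 and wt4 they were -1.11, 0.41 and -0.80, with permutation p adjusted over the 4 ratios of 0.095, 0.13 and 0.095, and of 0.13 for all 3. With a pair left out, splits are so few that the threshold needs all 4 ratios at the smallest possible p. Small differences turned sign as well: the NM_009505 share of Vegfa (-1.08 to 0.19 percentage points with a library left out), and the ratios to the endothelial sum of Angpt2 (-0.08 to 0.17, and -0.17 without wt1 and wt2) and Nrp1 (-0.01 to 0.07). The transcript shares and the endothelial ratios were chosen after seeing the data. No paired analysis was possible because the wild-type columns cannot be tied to the numbered samples of either age. Depth limits Vegfc, Pgf and Angpt2, whose values rest on few reads.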

Other observations

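Some listed ligands were below the filter and were not tested in the main fit. The 3 given here were chosen after their values were seen. Without a filter, 7 of 19 listed ligands rose and 4 fell, where 4454 of 18062 genes rose and 1818 fell. Apln, the endothelial peptide apelin, was at 0.078, 0.097, 0.072, 0.067 and 0.039 RPKM in ko1 to ko5 and at 0.179, 0.226, 0.467 and 0.386 RPKM in wt1 to wt4. Fgf2, a ligand of endothelium and satellite cells, was at 0.266, 0.399, 0.324, 0.229 and 0.399 RPKM in ko1 to ko5 and at 0.540, 0.645, 0.601 and 0.633 RPKM in wt1 to wt4. For both, every knock-out value lay below every wild-type value, which held for 11.4% of the genes that passed the filter. Hgf, which activates satellite cells, was at 0.090, 0.081, 0.082, 0.067 and 0.123 RPKM in ko1 to ko5 and at 0.029, 0.029, 0.067 and 0.023 RPKM in wt1 to wt4, so ko4 and wt3 were level.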
